A study of Mus musculus with 20 samples.

Results

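Accessible chromatin was followed at 7 genes of the transforming growth factor beta (TGF-β) pathway while mouse embryonic fibroblasts (MEFs) were driven towards pluripotency. The genes were the ligands Tgfb1, Tgfb2 and Tgfb3, the receptors Tgfbr1 and Tgfbr2, the effector Smad3 and the inhibitor Smad7. Peaks of all 20 libraries were merged into 335858 regions, and the 175 regions that lay in or within 20 kb of the 7 genes were taken. A region is called open in a library that has a peak in it. The MEFs came from embryos of OG2 mice, which carry a green fluorescent protein reporter under Oct4 regulatory sequence, crossed to 129 females, and pMXs retroviruses brought Oct4 into all reprogrammed cells, along with Nanog in its native form or NanogN70. In NanogN70, the NanogBiD of the study, the domain by which SS18 contacts BRG1 in the BAF remodeler is placed ahead of NANOG. Day 0 was the end of infection, and cells were grown in iCD3 medium and later in N2B27 medium with 2i and LIF, in which the embryonic stem cells (ESCs) were also kept. There was 1 library from MEFs, 3 from ESCs and 1 for each path on each of 8 days (0, 1 and 3, then 5, 7 and 8, then 10 and 12), so a day within a path has no replicate.

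TGF-β ligands are secreted in a latent form and, after release, bind the type II receptor encoded by Tgfbr2, which recruits and phosphorylates the type I receptor encoded by Tgfbr1. The type I receptor phosphorylates SMAD2 and SMAD3, which enter the nucleus with SMAD4 and act at enhancers together with other factors such as AP-1, while SMAD7 is induced by the pathway and blocks its receptors. In fibroblasts the pathway sustains matrix and cytoskeletal genes, and blocking it is known to ease the conversion of fibroblasts to pluripotent cells.

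Of the 12 fibroblast markers, 12 had a peak within 2 kb of a start site in MEFs, and all 12 ESC markers had one in each ESC library, where 10 of the fibroblast markers also had one. The NanogN70 day 3 library stood apart from the other time course libraries. It had a peak at 15 of 15 T lymphocyte markers, against 3 to 7 in the other 15 time course libraries, 7 in MEFs and 10 in ESCs. It also had one at 10 of 10 leukocyte markers against 4 to 7 (9 in MEFs, 6 to 7 in ESCs). At macrophage and endothelial markers it was within the range of the other 15, with 4 of 10 (1 to 5) and 7 of 10 (5 to 7). The pileup at the T lymphocyte markers, relative to regions open everywhere and summed, was 15.5 against 1.83 to 3.29, and that at the fibroblast markers 4.20 against 4.58 to 11.2; Thy1 is in both lists. Their part in the results was not tested, and values without this library or without day 3 are given for the tests between the paths and with day. Sequencing depth is unknown; the libraries held 44126 to 125467 peaks, and accessibility too low to be called cannot be told from none.

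The sequences below belong to the regions on which the results turn and are shown so that each can be read beside its values. Every sequence is from the GRCm38 (mm10) reference, and the promoters are RefSeq sequences of build GRCm38.p6, whose table had an entry for 5 of the 7 genes. Capitals mark letters that match, on either strand, a consensus of AP-1 (TGANTCA), TEAD (GGAATG), CTCF, OCT (ATTTGCAT), SOX (CATTGTT), KLF (GGGNGTGG) or SMAD (GTCTAGAC), and no match printed here overlapped another. A match is a string of letters and does not show that the factor was bound. The first pair of stretches come from the region downstream of Tgfb1 whose pileup differed between the paths, at chr7:25711860-25711886 and chr7:25711978-25712004 on the plus strand, and hold its 2 AP-1 matches.
AP-1 match 1 downstream of Tgfb1: aggccatggcTGAGTCAcaggcagcca
AP-1 match 2 downstream of Tgfb1: ctgtgtgtgaTGACTCAagacccatga
The next 2 are the 250 bases before the start sites of Tgfbr2 (chr9:116175364-116175613) and Tgfb2 (chr1:186705990-186706239), both read 5′ to 3′ on the minus strand, the promoters whose relative pileup fell with day; each holds 1 KLF match.
Tgfbr2 promoter: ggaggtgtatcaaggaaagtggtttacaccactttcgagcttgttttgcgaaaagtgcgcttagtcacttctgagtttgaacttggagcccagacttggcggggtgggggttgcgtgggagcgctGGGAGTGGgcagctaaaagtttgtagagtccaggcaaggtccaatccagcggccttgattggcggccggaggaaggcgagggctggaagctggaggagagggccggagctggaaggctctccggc
Tgfb2 promoter: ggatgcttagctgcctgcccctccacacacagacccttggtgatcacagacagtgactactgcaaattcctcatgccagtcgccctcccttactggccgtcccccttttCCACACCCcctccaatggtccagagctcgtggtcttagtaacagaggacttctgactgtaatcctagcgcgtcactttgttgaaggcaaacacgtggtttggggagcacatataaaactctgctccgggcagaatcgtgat
The last 5 are 300 bases around the summits of intronic regions, on the plus strand. They are the ESC-only region of Tgfb1 (chr7:25699854-25700153, 1 KLF match), the MEF-only region of Tgfbr2 with the highest score in MEFs (chr9:116152861-116153160, 1 AP-1 and 1 TEAD match), the Tgfbr2 region open only during reprogramming (chr9:116138656-116138955, 1 TEAD match), the Smad3 region that stayed open on more days with Nanog (chr9:63702676-63702975) and the Smad3 region open only with NanogN70 (chr9:63672820-63673119). Neither Smad3 window holds any of the 7 consensus strings.
Tgfb1 ESC-only intronic region: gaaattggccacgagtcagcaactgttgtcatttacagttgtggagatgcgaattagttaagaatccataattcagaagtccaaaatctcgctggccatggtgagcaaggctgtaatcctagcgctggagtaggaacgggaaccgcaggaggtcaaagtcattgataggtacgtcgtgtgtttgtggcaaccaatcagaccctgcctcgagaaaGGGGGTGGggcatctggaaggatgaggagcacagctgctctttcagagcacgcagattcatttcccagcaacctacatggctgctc
Tgfbr2 MEF-only intronic region: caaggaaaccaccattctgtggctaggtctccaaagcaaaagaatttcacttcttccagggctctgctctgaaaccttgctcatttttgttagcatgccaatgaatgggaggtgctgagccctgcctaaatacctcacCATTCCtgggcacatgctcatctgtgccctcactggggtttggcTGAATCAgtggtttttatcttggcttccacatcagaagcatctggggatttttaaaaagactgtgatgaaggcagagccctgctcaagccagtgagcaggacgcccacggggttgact
Tgfbr2 intronic region open only in reprogramming: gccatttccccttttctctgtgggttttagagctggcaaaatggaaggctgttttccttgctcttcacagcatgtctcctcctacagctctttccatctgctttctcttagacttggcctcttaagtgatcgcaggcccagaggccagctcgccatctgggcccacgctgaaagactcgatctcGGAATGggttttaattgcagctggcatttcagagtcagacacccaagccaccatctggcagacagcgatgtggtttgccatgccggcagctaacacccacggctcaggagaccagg
Smad3 MEF-only intronic region: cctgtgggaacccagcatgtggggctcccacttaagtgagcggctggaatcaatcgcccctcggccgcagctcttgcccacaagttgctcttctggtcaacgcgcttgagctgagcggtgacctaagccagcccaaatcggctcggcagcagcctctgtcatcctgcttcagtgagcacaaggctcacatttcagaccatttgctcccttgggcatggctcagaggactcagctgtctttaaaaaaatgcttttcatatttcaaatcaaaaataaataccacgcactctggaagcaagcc
Smad3 intronic region open only with NanogN70: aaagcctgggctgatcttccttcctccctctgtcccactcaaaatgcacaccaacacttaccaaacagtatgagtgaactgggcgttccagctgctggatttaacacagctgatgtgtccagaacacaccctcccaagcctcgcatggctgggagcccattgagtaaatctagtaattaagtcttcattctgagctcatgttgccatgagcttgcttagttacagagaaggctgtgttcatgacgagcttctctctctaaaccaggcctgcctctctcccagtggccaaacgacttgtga

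The ESC libraries had fewer open regions than the MEF library at 6 of the 7 genes, and more at Tgfb1; over all regions 34.0% were open in MEFs and 25.8% to 31.6% in ESCs. Smad3 had 20 open regions in MEFs and 3 to 5 in the ESC libraries, Tgfbr2 had 11 against 2 to 5, and Tgfb2 had 14 against 4 to 9. Smad7 had 14 against 7 to 13, Tgfb3 6 against 3 to 4 and Tgfbr1 6 against 1 to 3, whereas Tgfb1 had 7 in MEFs and 10 to 11 in ESCs. Of the 175 regions, 53 were MEF-only (with a peak in MEFs but none in ESCs, 30.3% against 22.2% of all regions), 17 were ESC-only (closed in MEFs and open in at least 2 ESC libraries, 9.71% against 16.5%) and 15 were shared (open in MEFs and all 3 ESC libraries, 8.57% against 9.34%). The other 90 had no such class, and 65 of these were open in reprogramming libraries only. Smad3 held 17 of the MEF-only regions, Tgfb2 11 and Tgfbr2 9, while Tgfb1 held 6 of the ESC-only regions and Tgfbr1 none. The Tgfb1 window also takes in 5 other coding genes (Exosc5, Tmem91, B9d2, Ccdc97 and Hnrnpul1), against 0 to 2 for the other members. A region counted at Tgfb1 can lie at one of these. By annotation 90 regions lay in introns, 34 upstream, 28 downstream and 23 over an exon, and 8 lay within 2 kb of a start site of another coding gene.

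**Figure D1:**
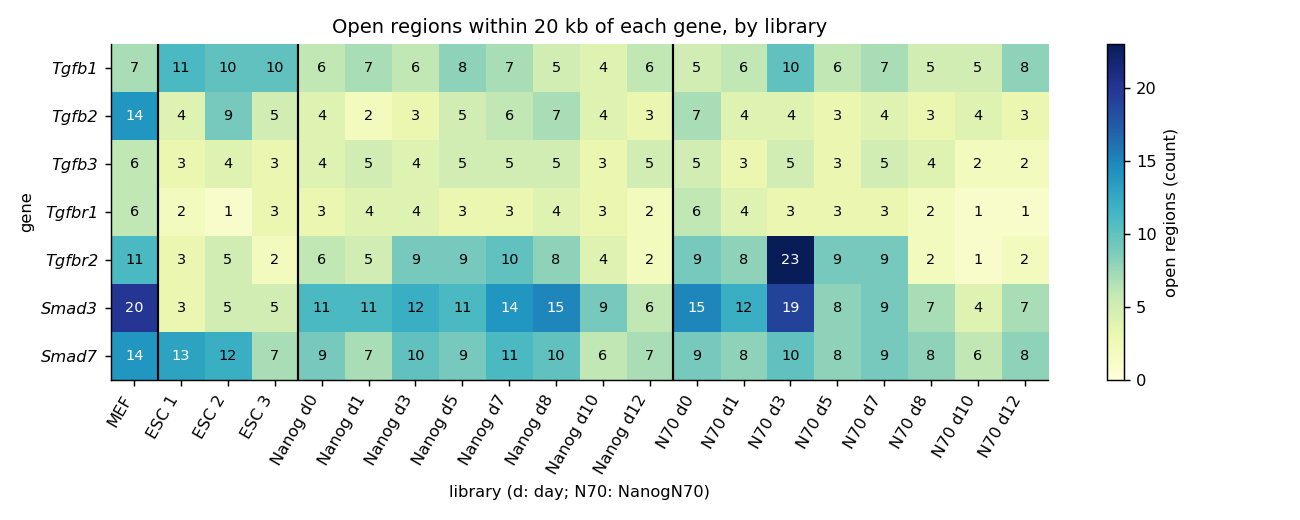
Number of open regions (those with a peak) in or within 20 kb of each gene (rows) in each of the 20 libraries (columns), with the count printed in each cell and vertical lines between MEFs, ESCs and the 2 paths. Smad3 falls from 20 in MEFs to 3 to 5 in ESCs, Tgfb1 has 10 or 11 in ESCs, and Tgfbr2 stands at 23 in the NanogN70 (N70) day 3 library.

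Averaged over the 8 days, the paths had close numbers of open regions at the 7 genes, 44.5 per library with Nanog and 43.25 with NanogN70. Without day 3 the means were 44.0 and 38.9. Across all regions the order was the other way, with 57140 open regions per Nanog library and 64284 per NanogN70 library. For a test, the number of open regions of each gene was scaled to the total of its library and compared between the paths with limma, day being a block, over 17739 genes. This called 189 genes (1.07% either way, 0.71% lower and 0.355% higher with NanogN70) and none of the 7. Values lay below 0 for all 7 (log2 NanogN70 over Nanog), as they did for 9869 of the 17739 genes (median -0.04), although without the scaling that of Tgfb1 was above 0 (0.07). At an unadjusted p below 0.05 there were 3 of the 7, where 8.71% of all genes were lower at that level: Smad3 at -0.37 (SE 0.13, limma adjusted p = 0.164), Tgfb3 at -0.48 (SE 0.17, adjusted p = 0.186) and Tgfbr1 at -0.43 (SE 0.19, adjusted p = 0.287). Without day 3 these were -0.42, -0.50 and -0.35 (adjusted p = 0.14, 0.225 and 0.47). The others ranged from -0.08 for Tgfb1 (SE 0.15, adjusted p = 0.872) to -0.27 for Tgfbr2 (SE 0.20, adjusted p = 0.583). Without day 3 Tgfbr2 was at -0.41 (adjusted p = 0.38), Tgfb2 at -0.18 (adjusted p = 0.732), Smad7 at -0.13 (adjusted p = 0.741) and Tgfb1 at -0.10 (adjusted p = 0.874).

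To compare heights between libraries, the summit pileup (the tags stacked at a summit) was divided by the median pileup of the same library over the 14217 regions open in all 20 libraries, and this ratio is the relative pileup. Tests were limma fits of its log2 over the 14918 regions open in all 16 time course libraries, of which 12 lie at the 7 genes, 6 of them promoters. A promoter region here lies within 2 kb of an annotated start site of the gene, internal starts included. Between the paths, 363 regions differed at an adjusted p below 0.05 (2.43%; 0.523% higher and 1.91% lower with NanogN70), and with day 2792 changed (18.7%; 8.51% rose and 10.2% fell). Scaled by the median of all peaks instead, 63 were higher and 97 lower with NanogN70 (78 and 285 before), and 793 rose and 390 fell with day (1270 and 1522 before). Of the 12 regions at the TGF-β genes, 1 differed between the paths (8.33%) and 2 changed with day (16.7%, near the share of all regions). Without day 3 the path differences of the 6 promoters ran from -0.34 (Tgfbr2) to 0.19 (Tgfbr1), that of Tgfb2 moved from -0.30 to -0.07, and none was called (adjusted p from 0.274 to 0.934). Without the NanogN70 day 3 library 4 of the 12 changed with day: besides the promoters of Tgfbr2 and Tgfb2, the region downstream of Tgfb1 described next and a region downstream of Tgfb2 (chr1:186609844-186610315), whose slope went from -0.084 (adjusted p = 0.111) to -0.107 (adjusted p = 0.004). The slopes of the promoters of Tgfb3, Tgfbr1, Smad3 and Smad7 were then -0.030, 0.023, -0.026 and 0.001 per day, and none was called (adjusted p from 0.241 to 0.98). Over all regions, too, more changed with day when day 3 was left out of both paths, as given below. The share of all regions without only the NanogN70 day 3 library is not given here. The 4 of the 12 are therefore not read as particular to these genes. The slopes of the paths differed in 0 regions by limma (0%), with 442 at an unadjusted p below 0.05 and none of the 12 among them. The libraries of a path are successive days, so these p-values measure the spread among these 16 libraries and not among independent transductions.

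Tgfb1, the ligand made by most cell types (chr7:25687002-25705077, plus strand), had the region that differed between the paths, a MEF-only region downstream of the gene (chr7:25711248-25712357), 24947 bp from the start site, over the last exon and 3′ untranslated region of the neighbouring gene Ccdc97. The pileup there was 117 tags in MEFs (relative pileup 3) and 0 in all 3 ESC libraries. With Nanog it was 27, 34, 44, 25, 52, 45, 31 and 17 tags in order from day 0 to day 12. With NanogN70 it was 35, 15, 16, 13, 22, 24, 15 and 19 tags on the same days. Relative to the library median, NanogN70 was lower on 8 of 8 days, although the ranges of the paths overlapped (0.708 to 2.12 with Nanog, 0.267 to 1.46 with NanogN70). The difference was -1.09 on the log2 scale (SE 0.21, limma adjusted p = 0.00668), that is 0.471 times the Nanog level, and without day 3 it was -0.83 (SE 0.16, adjusted p = 0.00216). The call did not hold without the day block (adjusted p = 0.121) or in the exact sign-flip permutation over days (two-sided p = 0.00781, the smallest it can give, adjusted p = 0.194). The summed relative pileup of the 12 fibroblast markers was 11.2, 10.6, 9.83, 10.1, 8.37, 7.88, 8.26 and 4.58 with Nanog from day 0 to day 12. With NanogN70 it was 11.2, 9.56, 4.20, 6.96, 6.24, 5.23, 4.71 and 4.90, which is lower on 7 of 8 days. The part of these markers in the difference was not tested, and in such bulk libraries fewer fibroblasts and less accessible chromatin per cell cannot be told apart. The slope with day was -0.080 log2 units per day (SE 0.029, adjusted p = 0.0574), and without the NanogN70 day 3 library it was -0.099 (SE 0.021, adjusted p = 0.00092). Summits of the 17 libraries with a peak lay within 107 bp of each other, and both AP-1 matches printed above lie among or next to them.

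The Tgfb1 promoter region (chr7:25686050-25690234) was open in 19 of 20 libraries and missing in NanogN70 day 10, so it entered no test. Its relative pileup was 1.10 in MEFs and 0.628 ± 0.064 in ESCs (SD, n = 3). In tags it was 13, 22, 28, 28, 32, 19, 14 and 9 with Nanog and 26, 15, 92, 20, 22, 12, 0 and 13 with NanogN70 from day 0 to day 12, with the 92 tags in the library that stood apart. The tallest peak moved within this 4 kb region by up to 2703 bp between libraries. At the ESC-only intronic region (chr7:25699850-25700253), MEFs had no peak, the ESC libraries had 26, 29 and 33 tags, and reprogramming libraries reached 5 to 17 tags on 6 Nanog days and 6 to 9 tags on 5 NanogN70 days. It was thus open on some days of both paths at heights below those of ESCs.

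Tgfb2, a ligand of embryonic and mesenchymal tissues (chr1:186622792-186705989, minus strand), had a promoter (chr1:186705066-186706259) that was open in all 20 libraries and fell with day. The relative pileup was 0.667 in MEFs and 0.359 ± 0.072 in ESCs (SD, n = 3). With Nanog it was 14, 12, 23, 10, 20, 15, 9 and 13 tags from day 0 to day 12, and with NanogN70 22, 15, 16, 12, 15, 10, 12 and 12 tags. The library median over regions open everywhere rose from 16 tags at the start to 24 at the end of the Nanog course, and from 24 to 41 in the NanogN70 course, so the same tags weigh less on day 12. The slope was -0.097 log2 units per day (SE 0.029, limma adjusted p = 0.0198), or 0.448 times over 12 days. The call was lost with scaling by the median of all peaks (adjusted p = 0.152) and without day 0, 1 or 12 (adjusted p = 0.144, 0.0895 and 0.0537), and without the NanogN70 day 3 library the slope was -0.110 (SE 0.024, adjusted p = 0.00103). Between the paths the promoter was at -0.30 (SE 0.23, adjusted p = 0.501). Of the 11 MEF-only regions of Tgfb2, 7 were open in no reprogramming library. A region near an internal start (chr1:186702548-186703264) had 28 tags in MEFs, 10 and 8 on Nanog days 0 and 5 and 14 on NanogN70 day 0. The region with the highest MEF score away from start sites, in an intron at chr1:186695248-186695713, had 24 tags in MEFs, 4 tags in Nanog day 8 and no peak elsewhere. The upstream ESC-only region, at -13878 bp from the start site (chr1:186719776-186720063) had 18, 27 and 17 tags in ESCs and no peak in MEFs or on any day of either path.

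Tgfb3 (chr12:86056745-86079041, minus strand) had a promoter region (chr12:86078399-86079766) open in all 20 libraries. Its relative pileup was 1.41 in MEFs, 0.932 ± 0.092 in ESCs (SD, n = 3), 0.75 to 1.00 with Nanog and 0.585 to 1.33 with NanogN70, and neither its slope (-0.036 per day, SE 0.022, limma adjusted p = 0.267) nor its path difference (-0.06, SE 0.17, adjusted p = 0.887) was called. An upstream MEF-only region at -12677 bp (chr12:86091277-86092260), which also lies near an internal start of Ift43, was open on 8 Nanog days and 4 NanogN70 days. It had 35 tags in MEFs, 5 to 19 with Nanog and 32, 7, 7 and 6 on days 0, 1, 7 and 8 with NanogN70. A further region at chr12:86097704-86098092, closed in MEFs and ESCs, was open on 6 and 2 days, with 4 to 8 tags in each. The ESC-only region in an intron (chr12:86060938-86061238) had 7, 6 and 5 tags in ESCs, and 4 and 6 tags on NanogN70 days 0 and 3, close to the lowest pileups of 3 to 5 tags that any peak had.

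**Figure D2:**
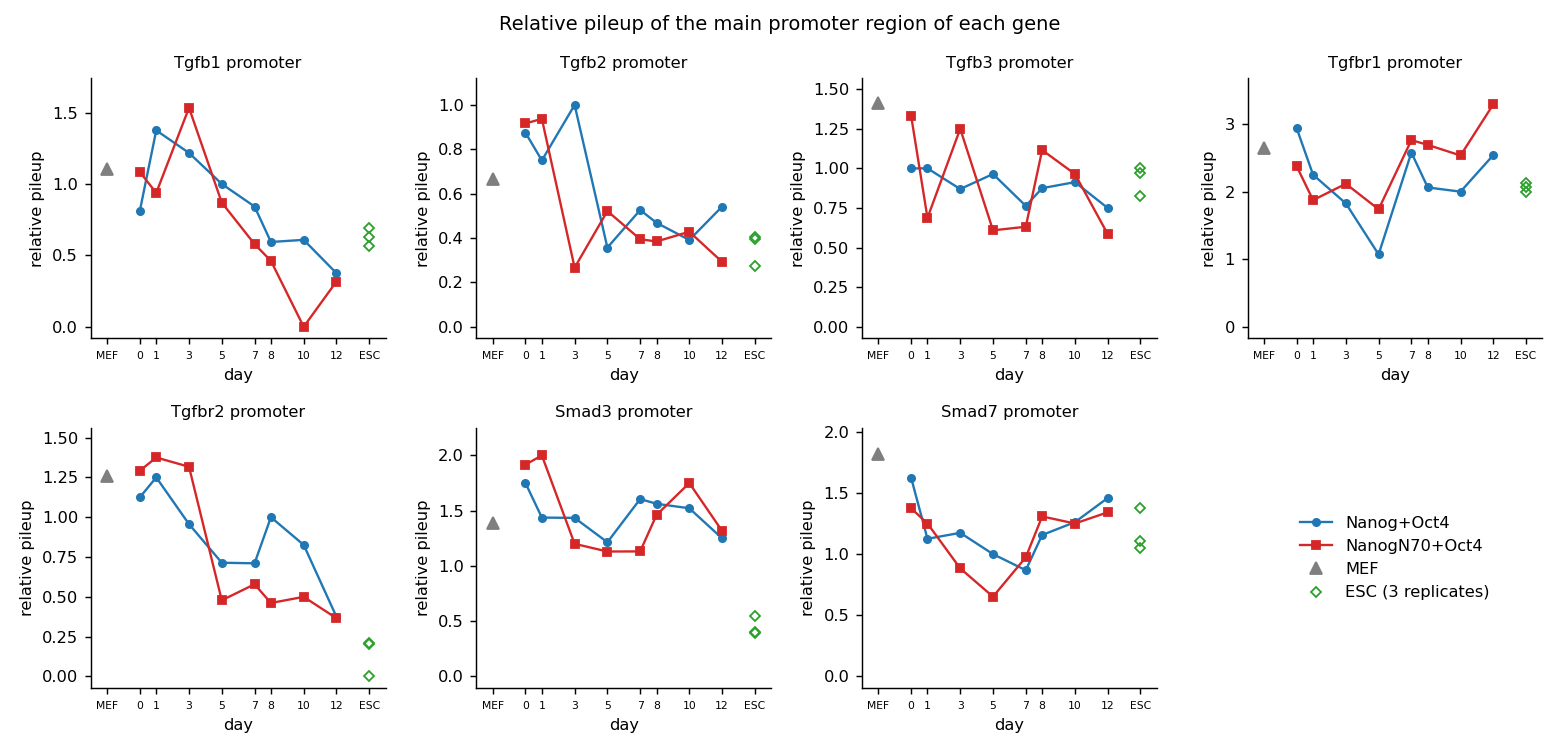
Relative pileup (summit pileup divided by the library's median over 14217 regions open in all 20 libraries; 0 means no peak) of the main promoter region of each gene by day, with Nanog+Oct4 as circles, NanogN70+Oct4 as squares, MEFs as a triangle and the 3 ESC replicates as diamonds. The Tgfbr2 promoter ends at 0.375 and 0.366 on day 12 after 1.25 and 1.38 on day 1, while the Smad3 promoter stays between 1.13 and 2 in both paths.

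Tgfbr2, the ligand-binding receptor (chr9:116084293-116175360, minus strand), had the lowest adjusted p for a change with day, at its promoter (chr9:116174115-116175692). The pileup was 49 tags in MEFs and 0, 8 and 6 tags in the ESC libraries, a relative pileup of 1.26 against 0.139 ± 0.121 (SD, n = 3). With Nanog it was 18, 20, 22, 20, 27, 32, 19 and 9 tags from day 0 to day 12. With NanogN70 it was 31, 22, 79, 11, 22, 12, 14 and 15 tags. In relative terms both paths were lowest on day 12, above every ESC library. The slope was -0.133 log2 units per day (SE 0.024, limma adjusted p = 0.000638), or 0.33 times over 12 days, and it was called in all 13 alternatives (adjusted p from 0.000149 to 0.0244). Without the NanogN70 day 3 library it was -0.126 (SE 0.023). The summed relative pileup of the fibroblast markers also went from 11.2 on day 0 to 4.58 on day 12 with Nanog. With NanogN70 it went from 11.2 to 4.90. The part of these markers in the slopes of the Tgfbr2 and Tgfb2 promoters was not tested. The paths did not separate (-0.24, SE 0.19, adjusted p = 0.497), nor did their slopes (-0.069 per day, SE 0.048, adjusted p = 1.00). Internal to the gene, the MEF-only intronic region (chr9:116152671-116153327) had 58 tags in MEFs and 14 and 13 tags on day 0. It had 10 and 7 tags on Nanog days 8 and 10 and 19 tags on NanogN70 day 3, and no peak on other days. Its relative pileup was 1.49 in MEFs and at most 0.875 with Nanog and 0.542 with NanogN70. Its printed window holds an AP-1 and a TEAD match. The ESC-only region with the highest ESC score, over the untranslated region at chr9:116084847-116085118, had 7, 0 and 7 tags in ESCs and no peak elsewhere.

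Of the 40 regions of Tgfbr2, 25 were open in reprogramming libraries but in neither MEFs nor ESCs. The one open in the most libraries was in an intron at chr9:116138505-116139296, 36554 bp from the start site. It was open in 13 of 16 time course libraries, on 6 Nanog days with 7 to 25 tags and 7 NanogN70 days with 7 to 13 tags. Another intronic region, at chr9:116165818-116166561, had 5 to 14 tags on Nanog days 0 to 7 and 11 to 16 tags on NanogN70 days 0 to 7 and no peak from day 8 on in either path. Across the series 129828 of 335858 regions were open only in the time course, and at the 7 genes 65 of 175. Of the 25 at Tgfbr2, 9 were open only in the NanogN70 day 3 library.

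**Figure D3:**
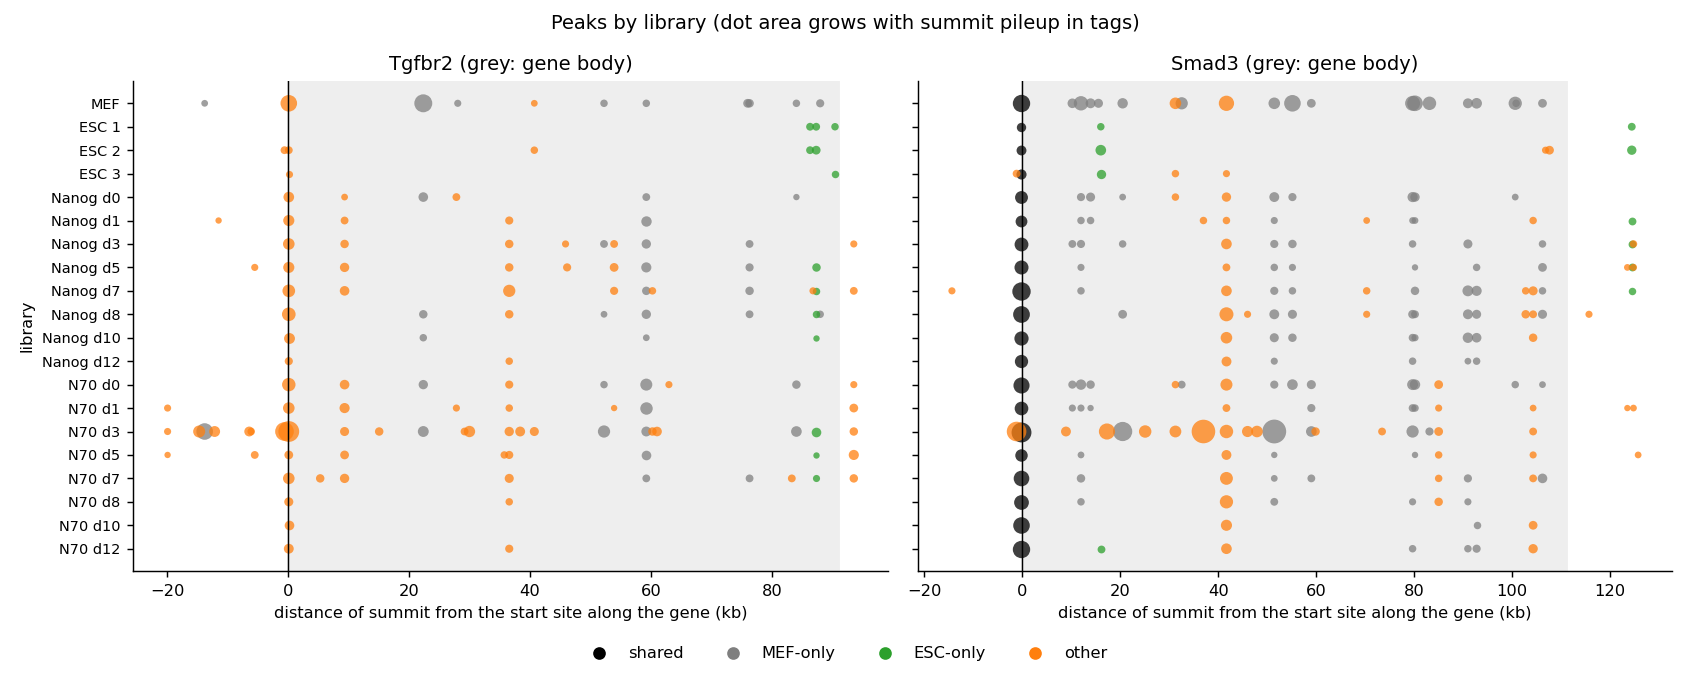
Peaks at Tgfbr2 (left) and Smad3 (right) in each library (rows), placed by the distance of the region's summit from the start site along the gene in kb; dot area grows with summit pileup in tags, colour gives the class and grey marks the gene body. The promoter column of Smad3 is filled in all 20 libraries, MEF-only dots number 17 at Smad3 and 9 at Tgfbr2 in MEFs and 3 to 4 and 0 on day 12, and the NanogN70 (N70) day 3 row holds 23 Tgfbr2 regions.

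Tgfbr1, the kinase that phosphorylates SMAD2 and SMAD3 (chr4:47353222-47414931, plus strand), had a promoter open in all 20 libraries (chr4:47350657-47353899). Its relative pileup was 2.64 in MEFs, 2.07 ± 0.07 in ESCs (SD, n = 3), 1.07 to 2.94 with Nanog and 1.74 to 3.29 with NanogN70. NanogN70 was higher on 6 of 8 days, and the difference of 0.19 (SE 0.11, limma adjusted p = 0.356) was not called, nor was the slope of 0.024 per day (SE 0.020, adjusted p = 0.41). Of its 4 MEF-only regions, 2 were open in no reprogramming library, the 1 with the highest score at -7521 bp from the start site (chr4:47345544-47345754, 13 tags in MEFs). An intronic region at chr4:47399657-47400160 with 8 tags in MEFs and 6, 0 and 6 in ESCs was open on 7 Nanog days (7 to 14 tags) and 5 NanogN70 days (4 to 14 tags).

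Smad3, the transcriptional effector (chr9:63646767-63757994, minus strand), kept an open main promoter in every library. At chr9:63756473-63758671 the relative pileup was 1.38 in MEFs and 0.451 ± 0.088 in ESCs (SD, n = 3), and the time course libraries lay around the MEF level, at 1.21 to 1.75 with Nanog and 1.13 to 2 with NanogN70. Neither the slope (-0.022 per day, SE 0.017, limma adjusted p = 0.386) nor the path difference (-0.01, SE 0.12, adjusted p = 0.975) was called. An intronic region at chr9:63716030-63716715, 41694 bp from the start site, was likewise open on all days, with 41 tags in MEFs, 0, 0 and 6 tags in ESCs, 7 to 34 with Nanog and 8 to 31 with NanogN70. Near other starts, MEF-only regions around chr9:63665068-63665367 and chr9:63666850-63667149 had relative pileups of 0.462 and 0.385 in MEFs. Their medians were 0.271 and 0.339 with Nanog and 0 with NanogN70. MEF-only regions around chr9:63742284-63742583 and chr9:63743892-63744191 had medians of 0 in both paths, as had an ESC-only region around chr9:63741804-63742103.

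At Smad3, the numbers of open days differed by 4 or more between the paths at 4 regions. Of all regions open in the time course, 5.21% differed by 4 or more days between the paths (2.67% for NanogN70 and 2.54% for Nanog), and of the 140 such regions at the 7 genes 7 did (5.00%), 4 of them at Smad3, 2 at Tgfb3 and 1 at Smad7. Among MEF-only regions open in the time course the share was 9.05% (7.85% for Nanog and 1.2% for NanogN70), and 3 of the 37 at the 7 genes were of this kind. The MEF-only intronic region at chr9:63702304-63703036 had 49 tags in MEFs, 6 to 12 tags on 6 Nanog days, and 18 tags on day 0 and no peak thereafter with NanogN70. A region at chr9:63672751-63673093, closed in MEFs and ESCs, had 11, 6, 11, 7, 7 and 10 tags on NanogN70 days 0 to 8 and no peak with Nanog. Another MEF-only region (chr9:63698602-63699078, 11 tags in MEFs) was open on 4 NanogN70 days with 8 to 18 tags and on no Nanog day. An ESC-only region downstream (chr9:63633429-63633705) had 8 and 13 tags in 2 ESC libraries, 7 to 8 tags on 4 Nanog days and no peak with NanogN70. These heights are low, and at a minimum score of 100 none of the 7 differed by 4 or more days.

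Smad7, the inhibitor of the receptors (chr18:75367529-75395935, plus strand), had a promoter (chr18:75366203-75368038) with a relative pileup of 1.82 in MEFs, 1.18 ± 0.17 in ESCs (SD, n = 3), 0.868 to 1.62 with Nanog and 0.652 to 1.38 with NanogN70. The slope was 0.005 per day (SE 0.020, limma adjusted p = 0.899) and the path difference -0.11 (SE 0.14, adjusted p = 0.693). An intronic region near an internal start (chr18:75375168-75375942) was shared by MEFs (49 tags) and ESCs (9, 12 and 8 tags) and was open on 8 Nanog days and on NanogN70 days 0, 1, 5 and 8. The MEF-only region with the highest MEF score, in an intron at chr18:75377873-75379249, had 39 tags in MEFs, 10 on Nanog day 0 and 35 on NanogN70 day 3. Upstream, an ESC-only region at -6509 bp from the start site (chr18:75360573-75361267) had 26, 37 and 30 tags in ESCs. It was closed to day 3 in both paths, and then had 7, 6 and 7 tags on Nanog days 5, 7 and 8 and 5, 9, 11 and 9 tags on NanogN70 days 5, 7, 8 and 12. An ESC-only region downstream (chr18:75412000-75412530) had 21, 20 and 17 tags in ESCs and no peak in any other library.

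**Figure D4:**
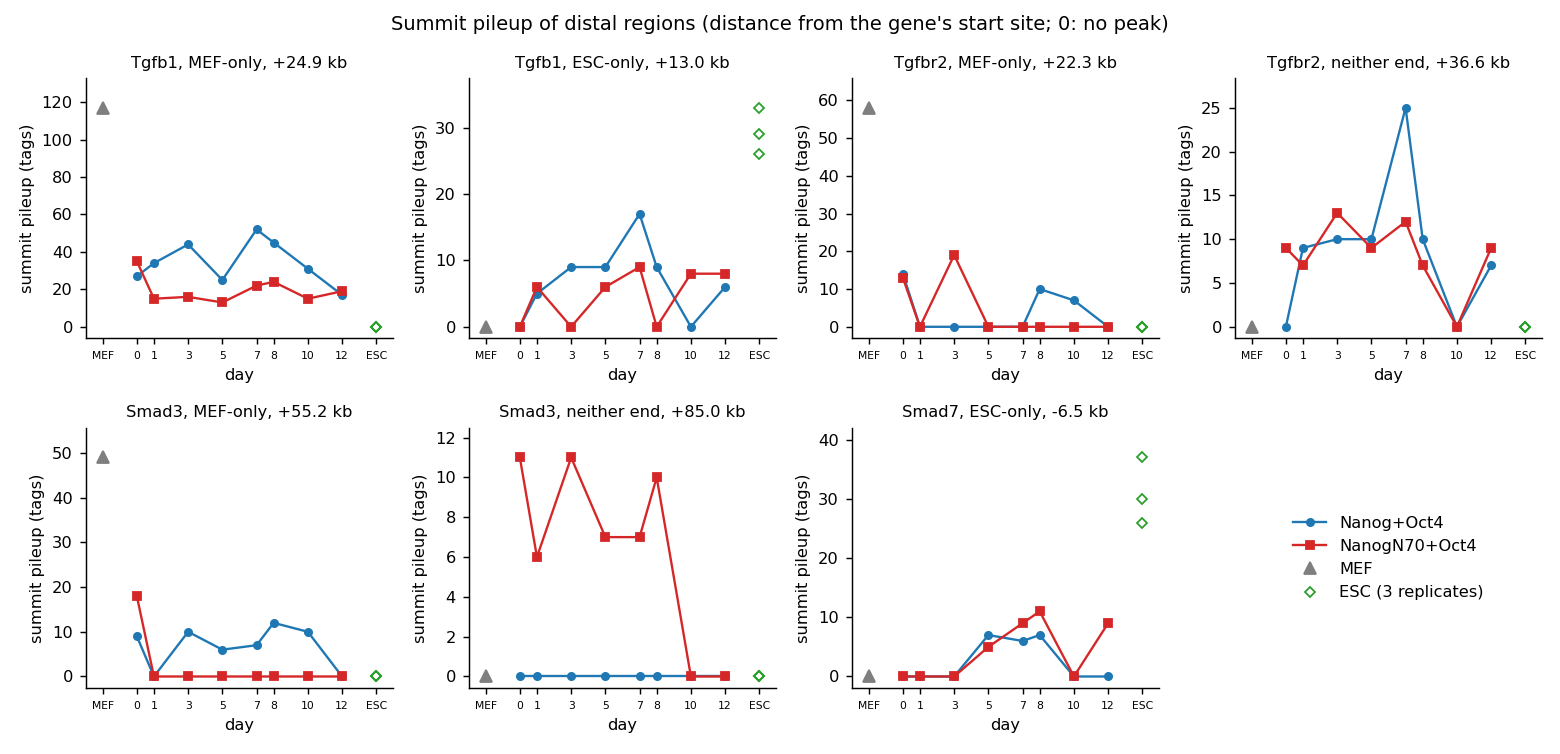
Summit pileup in tags (0 means no peak) by day at 7 distal regions, with the class and the distance from the start site in the panel titles; symbols are as in the plot of promoters. The downstream Tgfb1 region has 117 tags in MEFs and 13 to 52 in the time course, not scaled to library depth. Its relative pileup is 3 in MEFs and 0.267 to 2.12 in the time course. The Smad3 region at +85.0 kb has peaks only with NanogN70.

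In every reprogramming library fewer MEF-only regions of the 7 genes had a peak than lacked one, with at most 41.5% open (NanogN70 day 0). Of the 53, 16 (30.2%, against 44.4% of all MEF-only regions) had a peak in no reprogramming library and 37 did on at least 1 day, 19 of these on more Nanog days, 9 on more NanogN70 days and 9 on equally many. With Nanog 32.1% were open on day 0 and 13.2% on day 12, and with NanogN70 41.5% and 9.43%. The daily means were 26.7% and 19.3% (25.9% and 18.1% without day 3), against 16.4% and 12.2% for all MEF-only regions, and NanogN70 had fewer on 7 of 8 days both at the 7 genes and across all regions. Of the 17 ESC-only regions, 9 (52.9%, against 33.9% of all ESC-only regions) had a peak on at least 1 day of either path. On day 12, 6 (35.3%) were open with NanogN70, 3 of them in the window of Tgfb1, and 2 (11.8%) with Nanog, where all ESC-only regions stood at 14.2% and 5.87%. Of the 12 ESC markers, 11 had a peak in NanogN70 day 12 and 7 in Nanog day 12, with summed relative pileups of 7.54 and 4.75. The part of these markers in the shares was not tested. Without ESC replicate 1 there were 11 ESC-only regions in place of 17. These are shares of few regions in libraries of unknown depth and have no test.

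**Figure D5:**
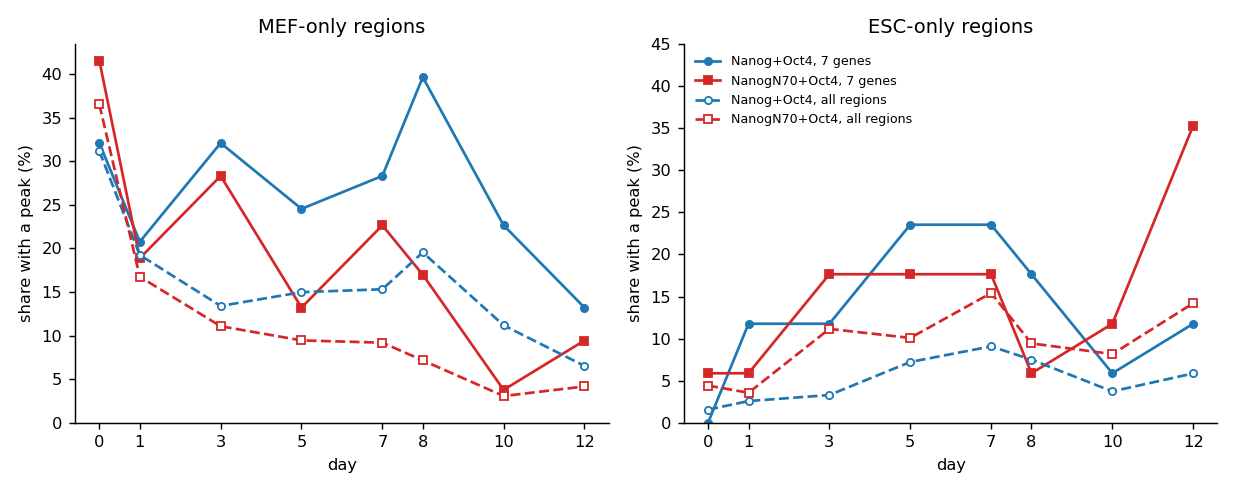
Share of MEF-only (left) and ESC-only (right) regions with a peak, in percent, by day; filled symbols and solid lines are the 53 and 17 regions of the 7 genes, open symbols and dashed lines all regions of the class. With NanogN70 the MEF-only share at the 7 genes drops from 41.5% on day 0 to 9.43% on day 12, and the ESC-only share reaches 35.3% on day 12.

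Other genes of the pathway were read at their tallest promoter region, where 10170 promoters of coding genes could be tested and 1.68% differed between the paths (1.13% lower with NanogN70, 0.551% higher) and 18.1% changed with day (10.7% rose, 7.32% fell). Of 29 genes of the signalling machinery 24 were testable; 1 was lower with NanogN70, 4 fell with day and 1 rose. The lower promoter was that of Thbs1, which activates latent TGF-β (-0.72, SE 0.18, limma adjusted p = 0.0315), a call that 7 of its 14 alternatives lost, with adjusted p up to 0.249; without day 3 it was -0.58 (adjusted p = 0.0352). Thbs1 also fell with day (-0.088 per day, SE 0.024, adjusted p = 0.0115), as did Ltbp2, of the latent TGF-β binding protein family (-0.096, SE 0.025, adjusted p = 0.00869), Smad9, a BMP effector (-0.086, SE 0.031, adjusted p = 0.0492) and Itgav, the integrin chain that frees the ligand (-0.080, SE 0.018, adjusted p = 0.00393). The promoter that rose was that of Tgif2, a repressor of SMAD activity (0.073, SE 0.017, adjusted p = 0.00459). Of 21 genes known to respond to TGF-β, 15 were testable. Twist1, a mesenchymal transcription factor, was lower with NanogN70 (-1.11, SE 0.22, adjusted p = 0.0103, lost in 3 of 13 alternatives; without day 3 -0.99, adjusted p = 0.005), 5 fell with day (33.3%) and none rose. Among them were Itga5, the fibronectin receptor chain (-0.147, SE 0.027, adjusted p = 0.00061), the collagen gene Col1a2 (-0.112, SE 0.035, adjusted p = 0.0245), Ccn2, the connective tissue growth factor (-0.111, SE 0.035, adjusted p = 0.0272) and Ccn1, a matricellular protein, named after its value was seen (-0.097, SE 0.027, adjusted p = 0.0135). The summed relative pileup of the fibroblast markers was also lower on day 12 than on day 0, at 4.58 against 11.2 with Nanog and 4.90 against 11.2 with NanogN70. Its part in these slopes was not tested. Col1a1, Col1a2 and Col3a1 are in both the marker list and the responsive list, so the sum is not separate from these promoters. The median slope was -0.044 over the 15, 0.012 over the 24 and 0.006 over all promoters. The slope calls were lost in 8 of 12 alternatives for Smad9, 5 of 11 for Col1a2, 5 of 13 for Ccn2, 4 of 12 for Ccn1, 3 of 13 for Ltbp2 and Thbs1, 1 of 13 for Itgav and none for Itga5 and Tgif2. Without the NanogN70 day 3 library all 9 of these were called, with slopes from -0.151 for Itga5 to -0.078 for Itgav and 0.070 for Tgif2. With scaling by the median of all peaks 0 of the 24 and 2 of the 15 fell. Of the 24, 1 fell without day 12 and 2 without day 10, and without day 0 2 fell and 3 rose. Of the 15, 1 fell without day 12 and 8 without day 3 or without the NanogN70 day 3 library, and at a minimum score of 100 1 of 9 testable fell. The shares of all promoters that fell in these settings are not given here.

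The AP-1 consensus was found in the 300 bases around the summit of 45 of the 175 regions (25.7%, against 20.7% of the 309765 regions read across the genome), and in 24 of the 53 MEF-only regions (45.3%, against 43.3% of all MEF-only regions) but 2 of the 17 ESC-only regions (11.8% against 8.84%). TEAD matches were in 16 of the 53 (30.2% against 30.4%) and KLF matches in 4 of the 17 (23.5% against 17.8%). CTCF, OCT and SOX matches were in 8, 4 and 12 of the 175 (4.57%, 2.29% and 6.86%, against 6.18%, 3.52% and 5.50%), and the SMAD palindrome in none, with 0.322% of all regions holding it. In the 15 shared regions AP-1 matches were in 3 (20% against 9.47% of all shared regions) and TEAD matches in 4 (26.7% against 15.8%), numbers too small to compare. In the 250 bases before 32841 RefSeq start sites, 15.9% held a KLF match. The promoters whose relative pileup over the 20 libraries was most like that of the members, among 11855 promoters, were Setd1b, Lmna and Map7d1 for Smad3 (Pearson r of 0.955, 0.936 and 0.931), Tbc1d31, Azin1 and Mfsd8 for Tgfbr1 (0.894, 0.833 and 0.832), Bin1, Erbb2 and Evi5l for Tgfb2 (0.878, 0.878 and 0.861), Rnf165, Eci1 and Csnk1e for Smad7 (0.813, 0.801 and 0.797) and Adcy7, Gm12258 and Pde4a for Tgfb3 (0.803, 0.734 and 0.732). The points of these correlations share library and depth, and they describe likeness only.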

How the data were processed

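ATAC-seq used Tn5 transposase to tag accessible DNA. Per the labels and the methods of the study, the authors trimmed reads with Trim Galore 0.6.4, aligned them with Bowtie2 2.4.5 to mm10, removed low-quality, mitochondrial and repetitive reads with SAMtools 1.16.1 and called peaks in each library with MACS 1.4.2 without a shift model, keeping duplicates. No input control is named. The deposited score of a peak is minus 10 times the log10 of its p-value, at least 50 here; the deposited summit signal is the pileup in tags, a whole number not scaled to depth. The depth behind a value, and so its counting error, is unknown, as the sources used here state no read numbers. Titles name the 3 ESC samples as ESCs while their source field says MEF; titles were followed.

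Regions are unions of peaks that share 1 bp or more, annotated with GENCODE M21. limma 3.58.1 (R 4.3.3) tested log2 relative pileup and, per gene with at least 5 regions, log2 of open regions plus 0.5 over the library's total, with Benjamini-Hochberg adjustment over all features, and was tested on simulated data. Tables and figures used Python 3.11.15. Alternatives were other scalings, a minimum score of 100, equal numbers of peaks, other windows, no day block and leaving out days. One gene of the responsive list is counted but not reported here by name. The members and lists were chosen with earlier results of these data known. The regions named by rule were each gene's main promoter and any region passing a test. Outside promoter regions, the rule also took each gene's top MEF-only and ESC-only regions and the region most different in days. Regions near other start sites were left out of these choices, and only some of them are given. Other named regions were chosen after their values were seen. Among these were the recurrent intronic regions of Tgfbr1, Tgfbr2 and Smad3 and the rest of the 7 that differed in days.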

Additional observations from a re-analysis of the deposited data

Results flagged for a closer look

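At the 7 genes, 20 regions had a peak in the NanogN70 day 3 library and in no other library, against 0 to 4 in each of the 15 remaining libraries of the time course, 16 in MEFs and 0 to 8 in ESCs. They were flagged as a signal seen in a single library; none enters the tests of relative pileup, but all count in the numbers of open regions and in the tests per gene. They made up 27.0% of the 74 member regions open there, and over all regions 23.3% of those open in this library were open only there. Tgfbr2 held 9, Smad3 6, Smad7 3, and Tgfb1 and Tgfb3 1 each. Their pileups ran from 7 to 63 tags with a median of 20. The T lymphocyte and leukocyte markers that are open in the same library were given above, and their part in these peaks was not tested.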

How the results depend on the processing

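The path difference called 363 regions; this became 160 with scaling by the library's median over all peaks, 548 with quantile normalization, 215 at a minimum score of 100, 8 without the day block and 0 by exact sign-flip permutation, with 2449 regions at an unadjusted p below 0.05, and it ranged from 90 (without day 10) to 602 (without day 3) when a day was left out. The split moved from 78 higher and 285 lower with NanogN70 to 63 and 97 with the library's median and 198 and 350 with quantile normalization. The slope with day called 2792 regions (1270 up, 1522 down), 1183 with the library's median (793 up, 390 down), and from 989 (without day 12) to 3763 (without day 3) when a day was left out. The difference of slopes called 0 regions by limma in each setting (442 at an unadjusted p below 0.05). The path difference per gene called 189 genes, 0 without scaling to the library's total (2725 at an unadjusted p below 0.05), 295 with a window of 50 kb, and 15 (without day 8) to 193 (without day 1) when a day was left out. Open regions at the 7 genes summed to 900 over the libraries, 577 at a minimum score of 100, 592 with equal numbers of peaks and 1355 with 50 kb; MEF-only regions numbered 53, 31 with equal numbers of peaks, 84 with 50 kb, and 54 to 55 when an ESC replicate was left out. ESC-only regions numbered 17, 7 at a minimum score of 100 or with equal numbers of peaks, 11 with 10 kb, 29 with 50 kb, and 11, 12 and 14 without ESC replicate 1, 2 and 3. The cause of these shifts was not tested, beyond the fewer or more regions that a stricter score or wider window admits. For single regions, genes and side counts, 664 of 725 alternatives kept their side of the threshold, 46 lost a call, 7 gained one, 8 moved a count and 0 reversed a called direction; 37 of the 664 changed the sign of a value that was not called, among them the path differences of the Tgfb3 promoter (0.07) and the Smad7 promoter (0.02) with the library's median. The slope without the NanogN70 day 3 library and the counts without regions open only there were added after the data were seen. The paths were paired by day, through the day block and the sign-flip permutation, and the effect of leaving out that block is given above. By replicate number no paired analysis was possible because groups share only the number 1, each day and path being 1 library.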
